A study of Homo sapiens with 6 samples.

Results

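The genes that license replication origins and run the replication fork were followed in PANC1 cells, a human pancreatic carcinoma line, after exposure to gemcitabine, a nucleoside analog that is built into DNA and blocks its elongation. The genes were taken as a fixed list of 52 symbols matched by Ensembl identifier. Of these, 51 were found among the 20461 genes of the expression table and all 51 had enough reads to be tested, while PRIM2 was not analysed here. Expression was measured by RNA-seq in 2 libraries of cells given vehicle (0.1% DMSO) and in 2 libraries of cells given 50 nM gemcitabine, all for 48 h. Open chromatin was measured by DNaseI-seq, in which a nuclease cuts accessible DNA, in 1 library of vehicle and 1 of gemcitabine at the same dose. The methods give no time beside it, and the study's results describe its conditions as those of the RNA-seq and the siRNA screen. The study's methods call the RNA-seq libraries biological replicates, and the p-values below measure the spread between these libraries only. The fits share that spread in part across genes, so a p-value does not rest on the gene's own replicates alone. PANC1 is a single line, so no value here speaks for other tumors.

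An origin of replication is licensed in G1 phase, when the origin recognition complex (ORC) and CDC6 recruit CDT1 with the MCM2-7 helicase and load rings of MCM2-7 onto DNA. Geminin (GMNN) binds CDT1 and stops loading once S phase has begun, and the kinases CDC7-DBF4 and CDK then recruit CDC45 and the GINS proteins to turn each loaded ring into the active CMG helicase. DNA polymerase alpha-primase starts each strand, polymerases epsilon and delta extend the leading and lagging strands on the sliding clamp PCNA, and the single-strand binding protein RPA and the fork protection complex keep the fork intact when it stalls.

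The RNA-seq libraries held 15153598 and 15766232 fragments on genes for vehicle, and 13194535 and 13275474 for gemcitabine. A gene's level in a library is given below as normalised CPM, the gene's fragments scaled to the size of the library after TMM correction. Members had 107 to 7973 fragments per library, far above the level of 3 fragments (0.190 to 0.227 CPM) that a gene at 0 could still have, and their standard errors ran from 0.0640 to 0.154 on the log2 scale. Of the 5 markers of the line, KRT7, KRT8, KRT18 and VIM stood at 392 to 1192 CPM and KRT19 at 2.96 to 6.77 CPM. Of 9 markers of blood, endothelial, liver, islet and acinar cells, 1 (PTPRC) passed the count filter, at 0.131 to 0.649 CPM.

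The 6 genes of the MCM2-7 ring all fell after gemcitabine. Outside the ring GINS2 (-0.64) and TIPIN (-0.58) fell and POLD4 (0.83) rose, and the remaining members lay between -0.41 and 0.39 on the log2 scale. A log2 fold change is gemcitabine against vehicle from the quasi-likelihood test of edgeR with Benjamini-Hochberg adjustment over the 14854 genes tested, and calls required an adjusted p under 0.05, a change of more than 1.5 times and a difference of at least 1 in mean FPKM. By this rule 5 members (MCM2, MCM3, MCM5, MCM6 and GINS2) were called lower, which is 9.80% of the 51 against 4.43% of all genes tested. Only POLD4 was called higher, 1.96% of the members against 5.69% of all genes. Estimates were below 0 for 33 of the 51 members, against 49.3% of all genes. With the adjusted p alone, 16 members (31.4%) fell against a background of 20.0%, and 6 (11.8%) rose against 18.5%. The median log2 fold change was -0.10 over the members and 0.0068 over all genes. Scaling by library totals moved the median of all genes to 0.12 and that of the members to 0.011, so the members stayed below all genes by about the same distance. Without the MCM2-7 genes, the 45 remaining members had a median of -0.07. Of these 45, 10 (22.2%) fell by adjusted p, against a background of 20.0%, and 1 (2.22%) was called lower. The background holds every gene with at least 10 fragments over the libraries and was not matched to the members for depth. The median SD between replicates was 0.0513 log2 CPM over members and 0.0978 over all genes. The shares of all genes given here and below are therefore not like for like. With limma on log2(FPKM + 1) in place of edgeR on fragments, 2 of the 51 members fell and 1 rose by adjusted p. The share of all genes passing in that fit is not given here, so these counts alone do not set the members apart. Of the 11 role groups, the medians of MCM2-7, CMG assembly and polymerase alpha were below 0 under edgeR with 3 scalings, DESeq2 and limma. That of CMG assembly came to -0.05 with library totals and -0.04 with limma. Those of the loading group and RPA were above 0 in all these fits. The medians of the other groups, -0.128 (ORC) to -0.0057 (polymerase delta) in the main fit, turned sign under library totals or limma. These fits moved the median of all genes to 0.12 and to 0.085 or 0.119. In these whole-culture libraries, fewer cells in a phase that expresses a gene and less of its RNA per cell cannot be told apart.

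**Figure D1:**
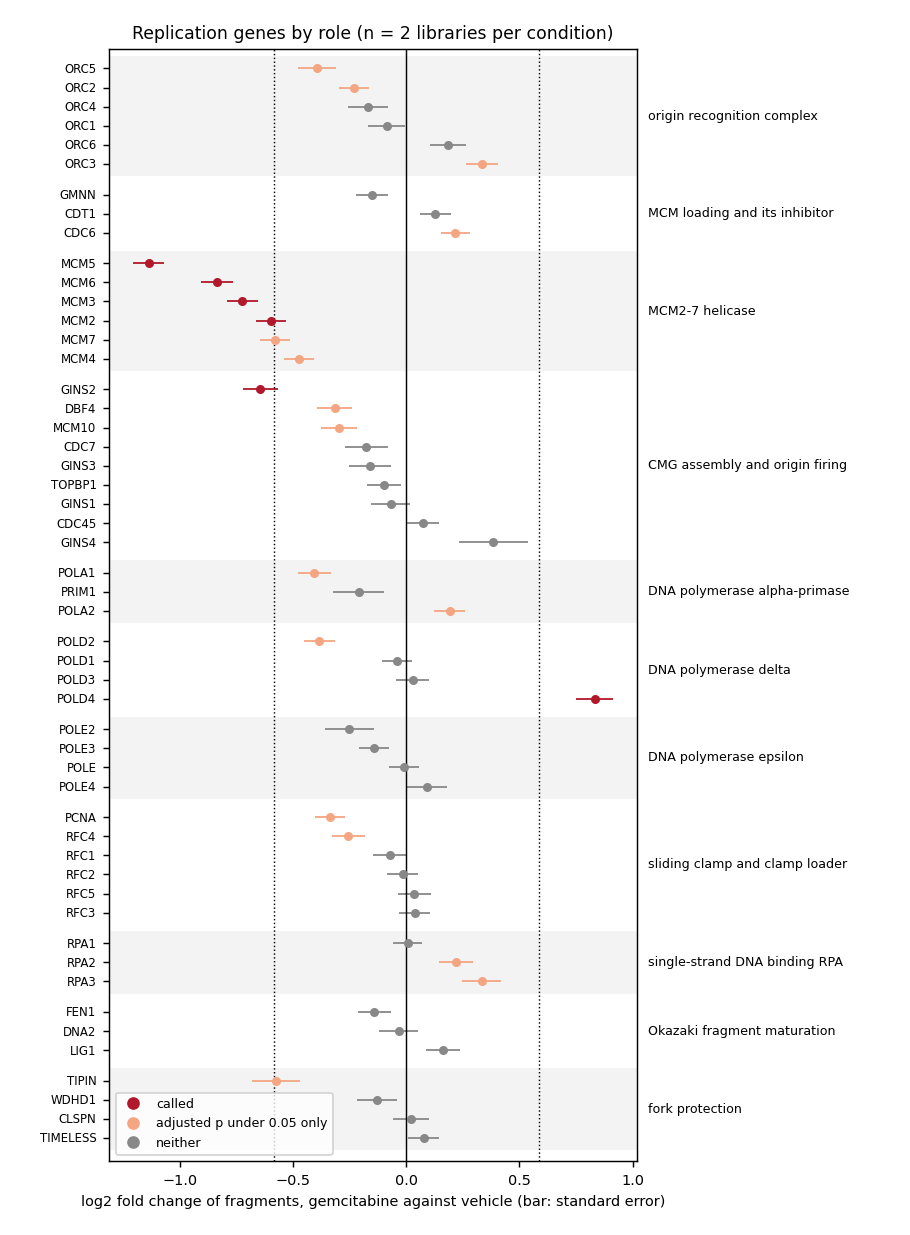
Log2 fold change of fragments, gemcitabine against vehicle, for the 51 members grouped by role, with standard errors from the edgeR fit (2 libraries per condition) and dotted lines at a fold of 1.5. The 6 MCM2-7 genes lie between -1.14 and -0.47, the 5 members called lower and POLD4 called higher are dark red, and most other groups straddle 0 under this scaling.

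All 6 MCM2-7 genes fell by adjusted p, and in each the gemcitabine libraries lay below both vehicle libraries, an arrangement seen in 34.7% of all genes tested. MCM5 changed most, with 241 and 226 CPM in vehicle and 106.5 and 106 CPM in gemcitabine. Its fragments fell to 45.4% of the vehicle level (log2 fold change -1.14, SE 0.0680, adjusted p = 4.83e-08). MCM5 forms one side of the gate between MCM2 and MCM5 through which the ring is opened for loading. On the other side of that gate, MCM2 was at 413 and 389 CPM in vehicle and 258 and 273 CPM in gemcitabine (-0.60, SE 0.0680, adjusted p = 1.02e-05).

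MCM6 stood at 259 and 256 CPM in vehicle against 136 and 153 CPM in gemcitabine (-0.84, SE 0.0722, adjusted p = 9.42e-07). MCM3, which binds ORC-CDC6 at the start of loading, stood at 358 and 339 against 203 and 219 CPM (-0.72, SE 0.0691, adjusted p = 2.28e-06). MCM4, part of the motor core with MCM6 and MCM7, changed least of the 6, from 448 and 451 to 311.5 and 335 CPM (-0.47, SE 0.0671, adjusted p = 7.02e-05). None of the 6 genes had overlapping conditions, and on a log scale the gap was widest for MCM5. MCM7, looked at after its values were seen, went from 515 and 524 to 335 and 360 CPM, and its log2 fold change of -0.58 lay just inside the limit of 0.585, so it passed the adjusted p but was not called.

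The subunits of the ring are used in equal number in each hexamer, but their FPKM values were not equal. On the FPKM scale, which divides by transcript length, mean vehicle levels were 533 ± 20.6 for MCM4 and 344 ± 3.95 for MCM7 (SD, n = 2). MCM5 followed at 132 ± 13.1, MCM3 at 126 ± 9.37, MCM2 at 119 ± 5.05 and MCM6 at 81.1 ± 2.42 FPKM (SD, n = 2). The neighbours MCM5, MCM3 and MCM2 differed by less than the sum of their spreads, and the gaps above and below them were larger. After gemcitabine MCM5, at 65.4 ± 10.1 FPKM (SD, n = 2), was placed below MCM2 (86.8 ± 3.52) and MCM3 (79.3 ± 4.07) and above MCM6 (54.2 ± 9.58). No neighbouring pair among these 4 was apart by more than the sum of their spreads. Fragments gave a different picture of MCM4 and MCM2. In vehicle replicate 1 they had 448 and 413 CPM over 4480 and 4097 exonic bases, yet FPKM values of 518 and 123. The FPKM also depends on how Cuffdiff divided fragments among transcripts, and the part of that in the order of subunits was not tested.

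**Figure D2:**
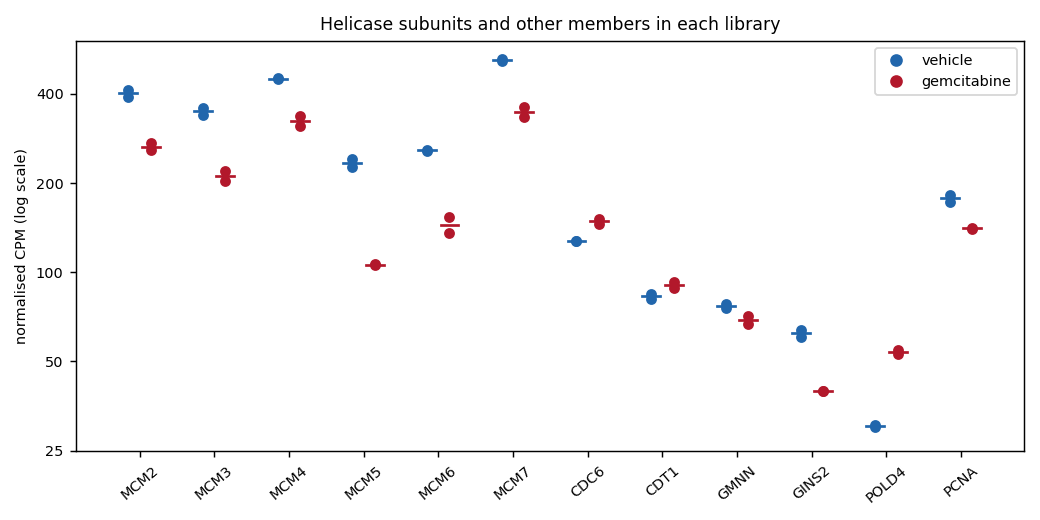
Normalised CPM (log axis) of 12 members in each RNA-seq library, 2 vehicle (blue) and 2 gemcitabine (red), with a bar at the mean of each pair. The 6 MCM genes and GINS2 sit lower in both gemcitabine libraries, POLD4 sits higher, and the loading factors CDC6 and CDT1 do not follow the ring.

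The calls on the ring depended on the fit used. The limma fits changed the measure, the scaling and the test together, and the part of each was not tested. With limma on log2(FPKM + 1), 1 of the 6 (MCM3) was called and 2 passed the adjusted p, and with a pseudocount of 0.1 FPKM 2 were called (MCM3 and MCM5). Under limma on log2(FPKM + 1), MCM5 kept a change beyond the fold limit but had an adjusted p of 0.0529. MCM2 (-0.46, adjusted p = 0.0524) and MCM6 (-0.58, adjusted p = 0.0953) missed both limits in that fit. The direction was downward for all 5 named MCM genes in every alternative, and the median of the 6 ran from -0.71 to -0.52. With library totals MCM2 lost its call, and it also lost it without vehicle replicate 1 or without gemcitabine replicate 1.

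The 250 bases before the RefSeq start are shown for genes that bear on this contrast (RefSeq, GRCh38.p14, 5′ to 3′ on the gene's strand). MCM6 (chr2:135876444-135876693, minus strand) and MCM3 (chr6:52284743-52284992, minus strand) were called lower and hold words of the E2F type, after the factors that drive genes at the G1/S boundary. MCM2 (chr3:127598161-127598410, plus strand) was called lower and holds none. CDC6 (chr17:40287629-40287878, plus strand) holds such a word and rose. POLD4 (chr11:67353597-67353846, minus strand, the first of its 2 starts) was called higher and holds none. Capitals mark 4 octamers (TTTCGCGC, TTTGGCGC, TTTCCCGC and TTTGGCGG) and CCAAT, the NF-Y word, on either strand.
MCM6: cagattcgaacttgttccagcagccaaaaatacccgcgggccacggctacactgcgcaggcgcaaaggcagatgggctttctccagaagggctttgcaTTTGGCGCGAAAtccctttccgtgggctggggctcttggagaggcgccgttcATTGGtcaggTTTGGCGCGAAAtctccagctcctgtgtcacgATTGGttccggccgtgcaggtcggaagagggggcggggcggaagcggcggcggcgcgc
MCM3: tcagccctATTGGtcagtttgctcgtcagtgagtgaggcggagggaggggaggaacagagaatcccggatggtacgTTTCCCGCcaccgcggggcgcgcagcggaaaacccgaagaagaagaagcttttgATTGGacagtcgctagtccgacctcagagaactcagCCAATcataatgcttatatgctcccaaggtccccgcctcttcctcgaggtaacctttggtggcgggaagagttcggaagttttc
MCM2: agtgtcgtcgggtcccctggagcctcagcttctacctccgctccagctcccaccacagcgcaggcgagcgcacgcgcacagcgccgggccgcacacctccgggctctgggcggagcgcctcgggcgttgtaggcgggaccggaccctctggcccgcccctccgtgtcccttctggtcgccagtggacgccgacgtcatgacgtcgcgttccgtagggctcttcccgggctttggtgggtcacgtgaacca
CDC6: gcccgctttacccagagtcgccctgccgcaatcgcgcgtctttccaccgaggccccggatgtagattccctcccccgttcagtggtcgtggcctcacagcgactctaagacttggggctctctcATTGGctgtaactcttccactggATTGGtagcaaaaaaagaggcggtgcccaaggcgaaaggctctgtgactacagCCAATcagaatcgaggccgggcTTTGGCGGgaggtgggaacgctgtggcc
POLD4: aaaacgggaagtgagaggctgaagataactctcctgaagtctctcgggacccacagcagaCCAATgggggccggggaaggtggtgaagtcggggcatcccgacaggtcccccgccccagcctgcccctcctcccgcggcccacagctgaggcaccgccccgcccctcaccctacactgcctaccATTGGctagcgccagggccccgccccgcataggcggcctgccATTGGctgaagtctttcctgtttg

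In MCM6 a pair of overlapping octamers, TTTGGCGC on the gene's strand and TTTCGCGC on the other with 4 bases in common, began 152 and again 90 bases before the start, with CCAAT words at 100 and 58 bases. The MCM3 window held TTTCCCGC at 174 bases and CCAAT at 242, 120 and 84 bases. The window of CDC6 held TTTGGCGG at 28 bases, close to the start, and CCAAT at 126, 103 and 50 bases. CDT1, whose window is not shown, held TTTCCCGC and TTTGGCGG at 35 and 27 bases.

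Over the 44 members with a promoter entry, 19 (43.2%) held at least 1 of the 4 octamers, against 5.49% of the 11460 genes with an entry. CCAAT was found in 26 members (59.1%, background 41.3%) and the GC-box word GGGCGG in 36 (81.8%, background 72.8%). The most frequent octamer was TTTCCCGC, in 10 members (22.7%, background 2.63%). A match is a string of letters and not a measured binding site, and both strands were searched. Octamers stood in 3 of the 4 MCM2-7 promoters and in 3 of 3 promoters of the loading group, where CDC6 rose. Members with an octamer had a median log2 fold change of -0.07 (19 genes, 7 lower and 3 higher by adjusted p), and members without one had -0.14 (25 genes, 7 lower and 1 higher). The genes without an entry were MCM4, MCM5, GINS4, POLD3, RPA2, RPA3 and DNA2.

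DNaseI peaks lay within 1 kb of a start site of 27 of the 51 members (52.9%) in the vehicle list and of 27 (52.9%) in the gemcitabine list, against 27.8% and 32.2% of the 14154 tested genes with a start site. Members and all genes were not matched for expression or for number of start sites, any of which could hold the peak. In both lists the peak was present for 19 members (37.3%, all genes 21.0%), in 1 list only for 8 members each way, and in neither for 16. With 1 library per condition there is no test of a difference. MCM3, MCM4, MCM6 and MCM7 had a peak in both lists, and MCM2 and MCM5 in neither. CDC6 and GMNN had one in the vehicle list, CDT1, GINS2 and POLD4 in neither, and TIPIN in the gemcitabine list. These lists are short (9606 and 10695 peaks), and with a minimum score of 100 the members with a peak were 9 in vehicle and 6 in gemcitabine, so a missing peak says only that none was called.

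**Figure D3:**
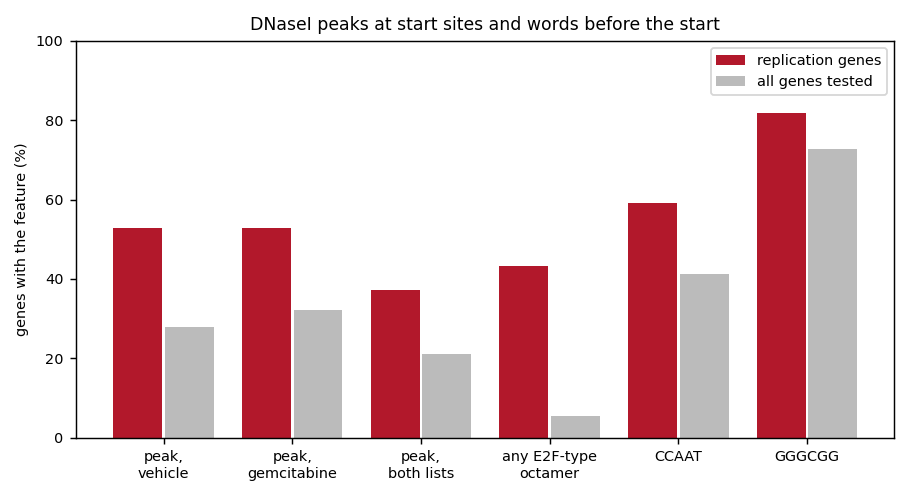
Share of genes (%) with a DNaseI peak within 1 kb of a start site in each list (51 members and 14154 genes tested) and with each promoter word in the 250 bases before the start (44 members and 11460 genes). Red bars are the replication genes and grey bars all genes tested, and the octamer bars are furthest apart, at 43.2% and 5.49%.

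The loading factors did not fall with the ring. CDC6, the ATPase that joins ORC to receive MCM2-7, was at 128 CPM in both vehicle libraries and at 151 and 146 CPM in gemcitabine. It rose slightly (log2 fold change 0.22, SE 0.0652, edgeR adjusted p = 0.0162) and was not called, and it did not pass the adjusted p without vehicle replicate 1 (0.23, adjusted p = 0.141) or without vehicle replicate 2 (0.23, adjusted p = 0.142). CDT1, the carrier of the ring, was at 84.6 and 81.2 CPM in vehicle and at 88.2 and 93.0 CPM in gemcitabine, and its inhibitor GMNN was at 75.6 and 77.9 against 71.4 and 67.0 CPM. Neither passed the adjusted p. The conditions did not overlap for CDT1 (higher, as in 35.0% of all genes tested) or for GMNN (lower, as in 34.7%). With DESeq2 CDC6 was again the 1 gene of the 3 past the adjusted p, and with limma on log2(FPKM + 1) there were 0.

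Ratios within a library are free of scaling between libraries. Fragments of the 6 MCM genes were 10.5 times those of CDC6 and CDT1 in both vehicle libraries, and 5.64 and 6.05 times in the gemcitabine libraries. Against the 6 ORC genes the ratio was 6.43 and 6.20 in vehicle and 3.93 and 4.36 in gemcitabine. Against all other members it was 0.553 and 0.541, then 0.355 and 0.374. In each of the 3 ratios the conditions were apart, but with 2 libraries against 2 the two-sided exact permutation test cannot give a p below 0.333. Summed over the ring, 2234 and 2185 CPM in vehicle became 1350 and 1446 CPM, 0.633 of the vehicle mean, while the sum over the other 45 members kept 0.951 of its vehicle mean.

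Of the 6 ORC genes 2 (33.3%) fell and 1 (16.7%) rose by adjusted p, against 20.0% and 18.5% of all genes tested. By edgeR and by DESeq2 0 were called. At an unadjusted p under 0.05, 2 were lower and 2 higher. The share of all genes at an unadjusted p, for this count and those below, was not taken. It is at least as large as the share by adjusted p, so these counts alone set no group apart. ORC5 went from 49.1 and 45.8 to 35.0 and 37.1 CPM (log2 fold change -0.40, SE 0.0833, edgeR adjusted p = 0.00176), and gave -0.34 without vehicle replicate 1. It did not pass with limma (-0.22 and -0.23, adjusted p = 0.308 and 0.297). ORC2 also fell, at 100.3 and 104 against 88.1 and 86.5 CPM, while ORC3 rose from 56.9 and 56.5 to 71.4 and 71.5 CPM. ORC2, ORC3 and ORC5 belong to the stable core of the complex, so under edgeR members of 1 core moved in opposite directions. With DESeq2, 1 of the 6 genes was lower by adjusted p (ORC5, 0.011) and 1 higher, so ORC2 did not pass. With limma on log2(FPKM + 1), 0 were lower and 0 higher. ORC6, the subunit with the highest FPKM of the group (52.7 ± 6.26 in vehicle and 56.4 ± 0.509 in gemcitabine, SD, n = 2), was at 49.1 and 47.2 against 57.3 and 52.2 CPM, and did not pass (0.18, SE 0.0793, adjusted p = 0.0794). ORC1, the subunit whose level varies through the cycle, overlapped between conditions at 56.4 and 59.2 against 57.7 and 51.1 CPM.

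Among the 9 genes of CMG assembly and origin firing, 3 (33.3%) fell and 0 rose by adjusted p, against 20.0% and 18.5% of all genes. Called lower was 1 (11.1%, all genes 4.43%). GINS2, a subunit of the 4-protein GINS complex, went from 60.6 and 63.9 to 39.8 and 39.9 CPM (log2 fold change -0.64, SE 0.0768, edgeR adjusted p = 1.52e-05). With library totals it fell by 0.53 and stayed under the fold limit, and with limma the change was as large (-0.65 and -0.67) but the adjusted p was 0.0636 and 0.0562. Its partners did not follow, with GINS1 at 36.5 and 36.1 against 33.8 and 35.5 CPM, GINS3 at 26.9 and 28.2 against 24.6 and 24.7 CPM, and GINS4 at 7.36 and 7.22 against 9.30 and 9.77 CPM, none of which passed the adjusted p. CDC45, the third component of CMG, was at 72.5 and 74.5 against 79.5 and 75.2 CPM and did not pass either.

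The kinase activator DBF4 fell from 54.3 and 56.1 to 43.3 and 45.5 CPM, and MCM10, which helps start the assembled helicase, from 80.7 and 85.6 to 62.7 and 72.6 CPM. In FPKM the changes were smaller, -0.11 against -0.32 for DBF4 and -0.15 against -0.30 for MCM10. FPKM values of MCM10 overlapped (26.9 and 24.3 against 18.2 and 27.9). Of the 9 genes, 3 were lower by adjusted p with DESeq2 and 0 with limma on log2(FPKM + 1). CDC7, the kinase that DBF4 activates, overlapped at 50.1 and 53.4 against 50.4 and 41.1 CPM. TOPBP1, the scaffold that brings GINS to origins and activates ATR, had the highest FPKM of the group (59.7 ± 8.97 in vehicle and 64.4 ± 15.5 in gemcitabine, SD, n = 2). Its fragments stood at 195 and 199.96 against 172.5 and 197 CPM (-0.10, SE 0.0734, adjusted p = 0.317). The sign of the TOPBP1 value turned under library totals and under limma. At the level of the group, 1 unadjusted p under 0.05 was found among the genes that were higher (GINS4).

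The polymerases moved subunit by subunit. POLA1, the catalytic subunit of polymerase alpha, fell from 224 and 234 to 163 and 183 CPM (log2 fold change -0.41, SE 0.0728, edgeR adjusted p = 5.22e-04). With limma POLA1 did not pass (-0.29 and -0.30, adjusted p = 0.221 and 0.21). Its partner POLA2 rose from 94.0 and 91.1 to 108 and 103 CPM (0.19, SE 0.0669, adjusted p = 0.0348), a rise that did not pass with DESeq2 (0.19, adjusted p = 0.106), with limma (0.28 in both fits, adjusted p = 0.227 and 0.215), without the count filter (adjusted p = 0.0504), or without vehicle replicate 1 (0.149), vehicle replicate 2 (0.233) or gemcitabine replicate 1 (0.0581). PRIM1, the catalytic primase subunit, was at 20.6 and 20.8 against 16.4 and 19.4 CPM and did not pass. Neither POLA1 nor POLA2 reached the fold of 1.5.

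In polymerase delta, POLD4, the smallest subunit, was the member that rose most, from 30.4 and 30.01 to 54.6 and 53.0 CPM, or 178% of vehicle (log2 fold change 0.83, SE 0.0807, edgeR adjusted p = 2.54e-06). This call held in every alternative, with values from 0.81 to 0.94. The catalytic subunit POLD1 was at 114 and 119 against 111 and 116 CPM and POLD3 at 103 and 103 against 99.1 and 110.5 CPM, neither of which passed. POLD2, the subunit with the highest FPKM (537 ± 32.0 in vehicle and 409 ± 23.6 in gemcitabine, SD, n = 2), fell from 251 and 234 to 187 and 185 CPM (-0.38, SE 0.0669, adjusted p = 4.22e-04). With limma POLD2 did not pass (-0.39 in both fits, adjusted p = 0.0754 and 0.07). Fragments of POLD4 were 0.267 and 0.251 of those of POLD1 in vehicle and 0.490 and 0.458 in gemcitabine. The gene (hg19, chr11:67118243-67124443, minus strand) shares 33.1% of its exonic bases with ENSG00000256514 on the same strand, a gene not analysed here, and the part of that overlap in the POLD4 fragments was not tested.

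No polymerase epsilon subunit passed the adjusted p, with 2 of 4 at an unadjusted p under 0.05, both lower, and 0 past the adjusted p with DESeq2 or limma. POLE, the catalytic subunit, was at 133 and 141 against 139 and 132 CPM. POLE2 stood at 19.3 and 19.2 against 16.1 and 16.2 CPM (log2 fold change -0.25, SE 0.108, edgeR adjusted p = 0.0792), and POLE4, a histone-fold subunit with the highest FPKM (104 ± 1.20 in vehicle and 117 ± 9.12 in gemcitabine, SD, n = 2), at 33.4 and 34.8 against 38.2 and 34.4 CPM (0.09, SE 0.0888, adjusted p = 0.449).

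Of the clamp and its loader, PCNA and RFC4 fell. PCNA, the ring that holds polymerases on DNA, went from 183 and 173 to 141 and 140.0 CPM (log2 fold change -0.34, SE 0.0663, edgeR adjusted p = 0.00102), and gave -0.29 without vehicle replicate 1. It did not pass with limma (-0.23 in both fits, adjusted p = 0.121 in both). RFC4 went from 99.2 and 96.7 to 86.6 and 77.3 CPM. The other loader subunits, RFC1, RFC2, RFC3 and RFC5, overlapped between the conditions. RFC2, which had the highest FPKM of the group (155 ± 13.0 in vehicle and 174 ± 10.5 in gemcitabine, SD, n = 2), gave -0.02 (SE 0.0671, adjusted p = 0.875), and its sign turned under library totals and limma.

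The small RPA subunits rose by adjusted p and the large one did not. RPA3 went from 37.7 and 33.4 to 44.7 and 44.7 CPM (log2 fold change 0.33, SE 0.0868, edgeR adjusted p = 0.00729) and RPA2 from 50.6 and 51.5 to 61.1 and 57.9 CPM. RPA1, which carries the main DNA-binding domains, was at 307 and 302 against 306 and 306 CPM (0.0060, SE 0.0640, adjusted p = 0.949). RPA3 shares 3.3% of its exonic bases with UMAD1, and it did not pass without vehicle replicate 2 (0.25, adjusted p = 0.15) or with limma (0.51 and 0.52, adjusted p = 0.0889 and 0.0784). Of the 3 genes 1 passed with DESeq2 and 0 with limma.

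For Okazaki fragment maturation, 0 of 3 genes passed the adjusted p with edgeR, DESeq2 or limma, and 1 (LIG1) had an unadjusted p under 0.05. FEN1, the flap nuclease, was at 178 and 167 against 148 and 165 CPM (-0.14, SE 0.0720, adjusted p = 0.137) and LIG1, the nick-sealing ligase, at 80.3 and 73.4 against 83.5 and 88.5 CPM (0.16, SE 0.0731, adjusted p = 0.0938). DNA2 was at 32.6 and 32.7 against 32.3 and 31.5 CPM. Conditions did not overlap for these genes, FEN1 and DNA2 lower and LIG1 higher, an arrangement found in 34.7% and 35.0% of all genes tested.

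In the fork protection group only TIPIN fell, and its partner did not follow. TIPIN went from 23.3 and 22.9 to 14.99 and 15.9 CPM (log2 fold change -0.58, SE 0.106, edgeR adjusted p = 6.22e-04), which is 67.1% of vehicle and just short of the fold of 1.5. With limma TIPIN did not pass (-0.36 and -0.38, adjusted p = 0.0986 and 0.093). TIMELESS, with which TIPIN forms a complex that holds helicase and polymerase together, was at 125 and 125 against 127 and 136 CPM (0.08, SE 0.0672, adjusted p = 0.392). CLSPN, the adaptor through which ATR activates CHK1, overlapped at 73.3 and 72.4 against 68.5 and 79.3 CPM, as did WDHD1, the link between CMG and polymerase alpha, at 51.5 and 50.5 against 42.6 and 50.7 CPM.

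The FPKM values gave a second view of the same libraries. The FPKM change lay above the fragment change for 44 of the 51 members, with a median difference of 0.12 on the log2 scale, and the sign differed for 7. Over the 14831 genes tested with an FPKM above 0 in both conditions, the FPKM change was the higher in 81.7%, the median difference was 0.117 and the sign differed in 18.0%, values close to those of the members. For 3 members the difference was over 0.3. They were looked at after their values were seen. GINS3 gave -0.16 in fragments and 0.71 in FPKM, with single FPKM values of 12.8 and 14.4 in vehicle and 26.7 and 17.9 in gemcitabine. PRIM1 gave -0.21 in fragments and -0.65 in FPKM and shares 28.1% of its exonic bases with other genes, and CLSPN gave 0.02 and 0.32. The fragment changes use TMM scaling, and with library totals in its place their median over all genes went from 0.0068 to 0.117. The FPKM is also summed over isoforms by Cuffdiff, so it depends on how fragments are divided among transcripts of different length. The part of each in the differences was not tested.

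**Figure D4:**
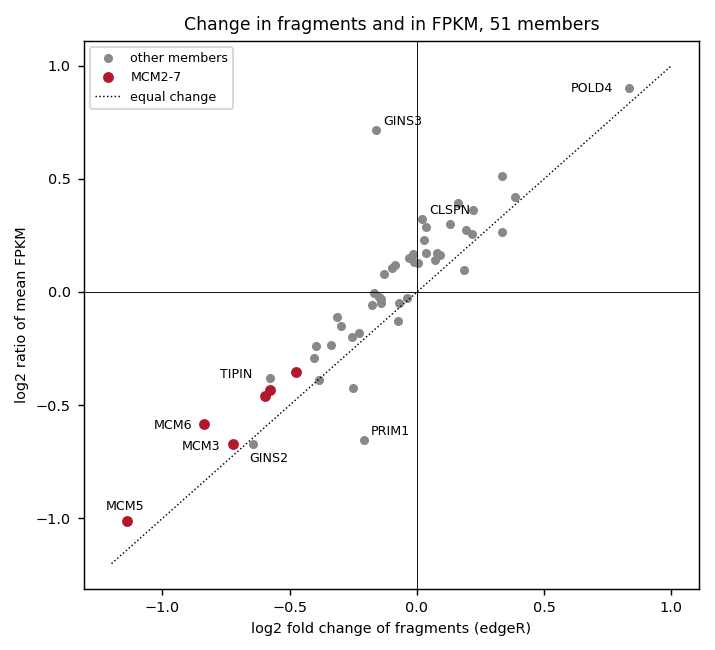
Log2 ratio of mean FPKM against log2 fold change of fragments for the 51 members, with the line of equal change (dotted) and MCM2-7 in red. Most points lie above the line, the MCM2-7 genes and POLD4 keep their direction on both axes, and GINS3 is far off the line.

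Other genes of the replication machinery, 39 tested of 41 listed, had a median log2 fold change of -0.12. Of these 15 (38.5%) fell and 4 (10.3%) rose by edgeR adjusted p, against 20.0% and 18.5% of all genes. Called lower were 2 (5.13%, all genes 4.43%): RIF1, which sets replication timing (-0.72), and CUL4A, a scaffold of the ligase that degrades CDT1 (-0.62). None was called higher with edgeR or DESeq2, and 9 of the higher genes had an unadjusted p under 0.05.

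Genes expressed at G1/S and G2/M are given beside the members, and the part of the cell cycle in the members' values was not tested. Of 20 G1/S genes 9 (45%) fell and 3 (15%) rose by edgeR adjusted p (median -0.12), against 20.0% and 18.5% of all genes. Called lower were 4 (20%, all genes 4.43%): UNG (-1.55), E2F1 (-0.93), MSH6 (-0.70) and SLBP (-0.65). Of 20 G2/M genes 10 (50%) fell and 2 (10%) rose (median -0.19). MKI67 (-0.72), PLK1 (-0.65) and CENPF (-0.63) were called lower (15%), and CDK1 (0.67) was called higher (5%, all genes 5.69%). E2F1, a transcription factor of G1/S genes, went from 102 and 91.4 to 48.1 and 53.4 CPM. Both lists thus held genes that fell and genes that rose.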

How the data were processed

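RNA-seq covered 2 vehicle and 2 gemcitabine PANC1 libraries and DNaseI-seq 1 of each. Single-end reads were mapped by the authors with TopHat2 2.0.8 (hg19), and Cuffdiff 2.0.2 with protein-coding Gencode genes gave the deposited estimated counts (raw fragments per gene, 86.8% whole) and FPKM, which the authors scaled to transcript length and library depth. The preparation guide is not stated to keep strand. The authors called DNaseI peaks with MACS in each condition, and the deposited score was used only as a minimum, with a lowest value of 50.

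Estimated counts were rounded. Of 20461 genes, 19619 matched a symbol and 14854 had at least 10 fragments over the 4 libraries. They were tested with the edgeR 4.0.16 quasi-likelihood test (R 4.3.3, TMM factors 0.959, 0.966, 1.05 and 1.03, no covariate), with Benjamini-Hochberg adjustment. A call needed an adjusted p under 0.05, a fold over 1.5, a mean of at least 0.1 FPKM in 1 condition and a difference of at least 1 FPKM. The study used Cuffdiff for its calls, with the same limits. The test was checked on simulated counts. Columns of the authors' own comparisons were not used.

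Start sites came from a Gencode annotation lifted to hg19, promoters from RefSeq. Full statistics are given for members called and, in each role group, for those with the highest mean FPKM and the smallest adjusted p, with fragments as normalised CPM. Members and lists were chosen with earlier results of these data known. Alternatives were edgeR with DESeq2-type size factors or library totals, DESeq2 1.42.0, limma 3.58.1 on log2 FPKM, other filters, thresholds and peak rules, and each library left out.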

Additional observations from a re-analysis of the deposited data

How the results depend on the processing

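Of 264 values of 24 named members under the alternatives, 215 kept direction and side of the threshold, 34 lost significance, 7 gained it and 8 turned sign. No paired analysis was possible because nothing links the library index of the table with the labels' replicate numbers. DESeq2-type size factors, DESeq2, no filter and filterByExpr left the 5 lower calls and POLD4 as they were. The share of all genes called or past the adjusted p under each alternative is not given here. The counts of members below therefore show how far calls depend on the setting, and nothing particular to the members. Members called lower were 3 with library totals, 1 and 2 with limma on log2(FPKM + 1) and log2(FPKM + 0.1), 11 at a fold over 1.3, and 4 to 7 when each library was left out. Of the MCM2-7 genes 1 and 2 were called with limma, and 3 to 5 with a library left out. Members lower by adjusted p were 2 and 4 with limma and 10 to 21 with a library left out (10 without vehicle replicate 1), against 16. Of the MCM2-7 genes 2 passed with limma on log2(FPKM + 1). Members higher by adjusted p were 11 with library totals, 1 with each limma fit, 3 at an adjusted p under 0.01, and 1 to 7 with a library left out (3 without vehicle replicate 1 and 1 without vehicle replicate 2), against 6.

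The median over members was 0.011 with library totals and -0.0089 and -0.0094 with limma. That of MCM2-7 was -0.55, -0.52 and -0.53 under the same fits, and that of the other members 0.041, 0.10 and 0.10. The median of all genes was 0.117 with library totals and 0.085 and 0.119 with limma, and calls were higher in 73.6% of all genes called there and in 74.3% and 70.6% with limma, against 56.2%. RFC2 turned to 0.095 with library totals, to 0.168 and 0.169 with limma, to 0.0084 without vehicle replicate 2 and to 0.020 without gemcitabine replicate 2 (-0.049 to 0.020 with a library left out), and TOPBP1 to 0.011, 0.094 and 0.095 with library totals and limma. With a peak score of at least 100, members with a peak were 9 in the vehicle list, 6 in the gemcitabine list and 2 in both. The cause of these shifts was not tested.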
